A study of Saccharomyces cerevisiae with 51 samples.

Results

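The α-factor-induced bins of wild type are the 100-bp stretches of the budding yeast genome whose RNA signal rose when *MAT***a** cells met the mating pheromone α-factor. A bin was taken when log2(value + 1) was higher by at least 2 with α-factor than without it in wild type and the larger of both values was at least 100. Bins that the files do not list were set to 0. Of 121587 bins listed in any library, 66666 reached 100 in either of these wild-type libraries, and 1044 of them (1.57%) passed. The 29 bins at *FIG1* and *FUS1* were dropped, which left 1015 bins. Joining bins across gaps of up to 2 other bins gave 179 runs. The bins were thus chosen by the wild-type values with and without α-factor, which are given as a description only.

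The study asked how Sub1, a DNA-binding coactivator of transcription, bears on the mating and the osmotic responses. RNA-Seq covered 8 libraries, from *sub1*Δ (yAS395, *sub1*Δ::*kanMX*) and from wild type (yAS418), a single *MAT***a** spore each of a diploid transformed with the reporter. Each strain received α-factor (10 nM, 45 min) or kept growing without it, and in a separate pair was moved for 45 min to SC with 1 M sorbitol or to fresh SC. ChIP-Seq covered 5 libraries with an anti-HA antibody: 4 of a strain with Sub1-3HA (yAS420, *SUB1*-3HA::*kanMX*), which the methods describe as keeping some *SUB1* function, and 1 of an untagged strain (yAS38). The tagged cells had 10 nM α-factor for 30 min or none, and sorbitol or its control for 5 min. The untagged cells had neither α-factor nor sorbitol, so signal without the tag was not measured in cells with α-factor. All strains lack *BAR1*, the protease that degrades α-factor, because a *FUS1* promoter-GFP cassette with *LEU2* replaces it, and all carry *met15*, *ura3*Δ0 and *his3*Δ1. Both RNA-Seq strains and the tagged strain also carry *lys2*Δ0, and the ChIP-Seq strains *leu2*Δ0.

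Each condition has 1 library, no test was run between conditions, and no p-value is given. The signal is the authors' value per bin, and it was a whole multiple of the value of 1 read in 100% of bins (tolerance 0.01 of a read), which gave 28754973 to 39497371 reads per RNA library and 24964958 to 48775730 per ChIP library. Log2 ratios of runs are ratios of the mean signal, and the range in parentheses behind them is an exact 95% binomial interval on the reads, which covers counting error only. The deleted gene matched the labels: *SUB1* averaged 1.61 to 2.95 per bin in the 4 *sub1*Δ libraries, against 365 to 477 in the 4 wild-type libraries. The **a**-cell receptor gene *STE2* averaged 1472 to 5873 over the 8 libraries, whereas of the 4 α-cell genes *MF(ALPHA)1* and *STE3* stayed between 3.49 and 19.9, *MF(ALPHA)2* between 53.8 and 78.9, and *SAG1* between 52.7 and 194, highest with α-factor in *sub1*Δ.

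Mating pheromone binds a G protein-coupled receptor on the partner cell, and the freed Gβγ starts a MAP kinase cascade that ends at the kinases Fus3 and Kss1. These relieve the transcription factor Ste12 from its repressors Dig1 and Dig2, and Ste12 binds pheromone response elements before its target genes. The targets arrest the cell cycle, build a mating projection, make cells stick together, and carry out the fusion of cells and of nuclei.

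The induced bins were spread over 16 chromosomes and gathered in few places. Of the 179 runs, 84 held at least 3 bins and together 897 of the 1015 bins, 31 held at least 10 bins, and 72 were single bins. Their summed signal took 4.74% of the *sub1*Δ library with α-factor and 0.589% without it, against 5.46% and 0.394% of the wild-type libraries with and without it. In such bulk libraries more responding cells and more RNA per cell cannot be told apart. In sorbitol and in fresh SC the share was 0.421% and 0.545% in *sub1*Δ, against 0.335% and 0.416% in wild type. At the threshold, the nearest bins inside were in *CHS1* (chromosome XIV, bin 279800, 1827 with and 455 without α-factor), at bin 27200 of chromosome XV (332 and 82.1) and at bin 247400 of chromosome XI (131 and 31.8). The nearest outside were bin 817100 of chromosome VII (806 with and 201 without α-factor), bin 183100 of chromosome XIII (606 and 151) and bin 140500 of chromosome VII (328 and 81.3).

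Genes were placed on the SacCer2 bins by matching the order and spacing of genes in the R64 RefSeq table to the RNA signal, and 6269 of 6431 genes (97.5%) found a place. The bins are not separated by strand, so a gene and an overlapping or antisense transcript cannot be told apart. By this placement 70 runs lay on a protein-coding gene, 23 on another kind of gene and 86 between genes. The coding runs were the longest, with 40 of at least 3 bins that held 581 bins. For 37 genes at least 50% of the bins were induced. Among them were 18 of 55 genes on the lists of pheromone signalling, pheromone production, agglutination and cell wall, cell fusion, nuclear fusion and others. Over whole genes, 18 of the 51 listed genes with a mean of 100 in either library reached a log2 ratio of 2 in wild type, beside 0.91% of 4175 placed genes, a count that the choice of bins fixes. In *sub1*Δ, 16 of 52 reached it, beside 0.832% of 4329 genes. The median ratio over these listed genes was 1.42 in *sub1*Δ and 1.46 in wild type, and over all placed genes with a mean of 100 −0.10 in *sub1*Δ and −0.11 in wild type.

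**Figure D1:**
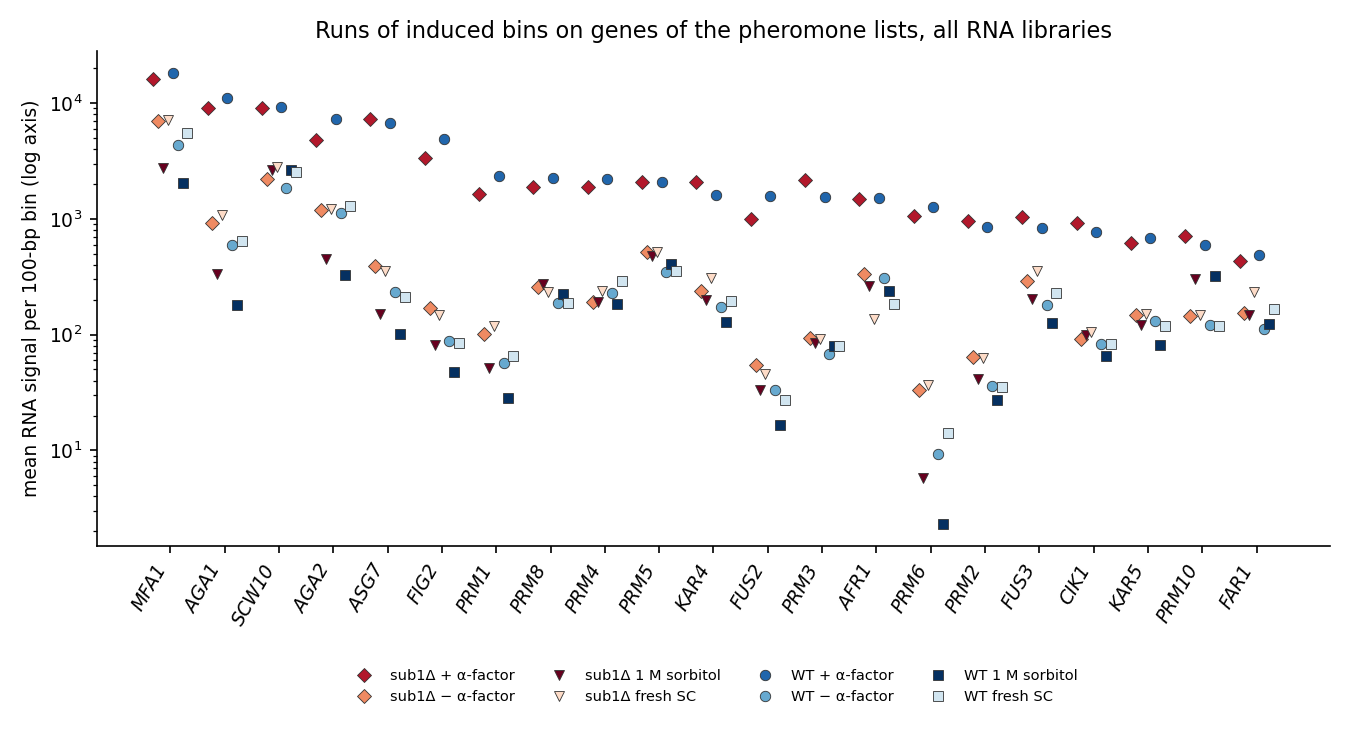
Mean RNA signal per 100-bp bin (log axis) of each run of at least 3 induced bins on a gene of the pheromone lists, ordered by the level in wild type with α-factor; each symbol is 1 library. The α-factor libraries of both strains lie above the other 6 in every run, and the libraries without α-factor span from 2.32 at *PRM6* to 7146 at *MFA1*.

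Among the 21 genes of signalling and adaptation, *FUS3* and *ASG7* were induced over most of their length, and only parts of *FAR1*, *AFR1* and *SST2* belonged to runs. *ASG7*, an **a**-cell gene whose product restrains signalling after mating (chromosome X, bins 101100 to 101800), had one of the highest levels. In *sub1*Δ, the run on *ASG7* averaged 7239 with α-factor and 391 without it, and 149.6 in sorbitol and 354 in fresh SC, while wild type held 6710.0 with α-factor and 234 without it, and 100.5 in sorbitol and 209.6 in fresh SC. The α-factor libraries stood far above the other 6, and sorbitol gave the lowest value in each strain. The log2 ratio with against without α-factor was 4.21 (4.16 to 4.26) in *sub1*Δ and 4.84 (4.78 to 4.90) in wild type. The run on *FUS3*, the mating MAP kinase (chromosome II, bins 192600 to 193600), averaged 1043 with and 292 without α-factor in *sub1*Δ, against 826 with and 182 without it in wild type. Its log2 ratio was 1.84 (1.78 to 1.90) in *sub1*Δ and 2.19 (2.12 to 2.26) in wild type, so both α-factor libraries were high and the smaller ratio in *sub1*Δ went with a higher level without pheromone.

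*FAR1*, which arrests the cell cycle and guides the projection, held a run of 4 bins (chromosome X, bins 123700 to 124300) and a single bin apart from it (chromosome X, bin 126300). The run averaged 435 with and 154 without α-factor in *sub1*Δ, against 491 with and 112 without it in wild type. Over its whole length *FAR1* had a log2 ratio of 1.44 in *sub1*Δ and 1.82 in wild type, below the threshold for bins. *AFR1*, needed for the shape of the projection, likewise held a run of 6 bins (chromosome IV, bins 614200 to 614700), with 1474 with and 332 without α-factor in *sub1*Δ, against 1528 with and 306 without it in wild type. Other genes of this list are given by their ratio over the whole gene. *STE2*, the α-factor receptor, had a log2 ratio of 1.12 in *sub1*Δ and 1.43 in wild type, *STE12* 1.31 and 1.00, *SST2*, which switches the G protein off and held 2 induced bins, 1.51 and 1.76, and *MSG5*, the phosphatase of Fus3, 1.62 and 1.68. The kinases upstream of Fus3 did not follow: *STE11* had 0.16 in *sub1*Δ and −0.21 in wild type and *STE7* −0.04 and −0.14. Neither kinase gene reached a mean of 100 with or without α-factor, and over the 19 genes of the list that did, the median was 1.12 in *sub1*Δ and 1.00 in wild type.

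Of the 7 genes on the list of pheromone production, *MFA1* alone held a run (chromosome IV, bins 1385200 to 1385400), and it had the highest level of all runs. In *sub1*Δ, *MFA1*, a gene of the **a**-factor precursor, averaged 16236 with α-factor and 6993 without it, and 2770.1 in sorbitol and 7146 in fresh SC, while wild type held 18118 with α-factor and 4372 without it, and 2062 in sorbitol and 5496 in fresh SC. Its log2 ratio was 1.22 (1.19 to 1.24) in *sub1*Δ and 2.05 (2.03 to 2.08) in wild type, and the strains lay closer with α-factor than without it. *MFA2*, the other precursor gene, reached 1.50 in *sub1*Δ and 1.77 in wild type, short of the threshold, and the exporter gene *STE6* 0.40 and 0.47. The precursor genes resemble each other in sequence, and how reads with several places were counted is not given in the sources used here.

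Of the 7 genes of agglutination and cell wall, 5 held induced bins. *FIG2*, a cell wall adhesin of mating cells, held 50 bins (chromosome III, bins 267400 to 272300), the longest run on a gene of the lists. In *sub1*Δ, *FIG2* averaged 3335 with α-factor and 169 without it, and 81.4 in sorbitol and 146 in fresh SC, while wild type held 4923 with α-factor and 87.3 without it, and 47.6 in sorbitol and 83.8 in fresh SC. The *sub1*Δ libraries were higher than wild type in the 3 conditions without α-factor and lower with it. The log2 ratio was 4.30 (4.27 to 4.34) in *sub1*Δ and 5.82 (5.78 to 5.86) in wild type. *AGA1*, the anchor subunit of **a**-agglutinin, held 23 bins (chromosome XIV, bins 703700 to 705900), and there too *sub1*Δ was above wild type without α-factor and below it with α-factor. In *sub1*Δ, *AGA1* averaged 9038 with α-factor and 926 without it, and 336 in sorbitol and 1077 in fresh SC, while wild type held 11063 with α-factor and 595 without it, and 179 in sorbitol and 645 in fresh SC. Its log2 ratio was 3.29 (3.27 to 3.31) in *sub1*Δ and 4.22 (4.19 to 4.24) in wild type.

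*AGA2*, the adhesive subunit of **a**-agglutinin (chromosome VII, bins 436500 to 436800), started from a high level in both strains. It averaged 4779 with and 1188 without α-factor in *sub1*Δ, against 7349 with and 1133 without it in wild type, with a log2 ratio of 2.01 (1.96 to 2.06) in *sub1*Δ and 2.70 (2.66 to 2.74) in wild type. The strains were near each other without α-factor and apart with it. In the cell wall genes only short stretches passed: 4 bins at *SCW10*, a cell wall glucanase (chromosome XIII, bins 878900 to 879200, 9154 with and 2215 without α-factor in *sub1*Δ, against 9231 with and 1864 without it in wild type), and 2 bins at *CHS1*, a chitin synthase (chromosome XIV, bins 279800 to 279900, 1347 with and 440.1 without α-factor in *sub1*Δ, against 1378 with and 325 without it in wild type). Like the runs on *AFR1* and the longer run on *FAR1*, both lay at the 3′ end of the placed gene. Over the 7 genes of this list the median log2 ratio was 1.81 in *sub1*Δ and 1.99 in wild type, and *CRH1*, which links chitin to glucan, had −0.40 in *sub1*Δ and −0.24 in wild type.

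Cell fusion was the list with most induced genes, 8 of 10, and a median log2 ratio of 3.15 in *sub1*Δ and 3.35 in wild type. *PRM6*, a potassium transporter of the plasma membrane (chromosome XIII, bins 180000 to 181100), had the largest ratio of any coding run. In *sub1*Δ, *PRM6* averaged 1052 with α-factor and 32.9 without it, and 5.75 in sorbitol and 36.5 in fresh SC, while wild type held 1272 with α-factor and 9.28 without it, and 2.32 in sorbitol and 14.0 in fresh SC. It was nearly silent without α-factor in wild type, and every *sub1*Δ library but the one with α-factor was above its wild-type counterpart. The log2 ratio was 5.00 (4.85 to 5.15) in *sub1*Δ and 7.10 (6.85 to 7.36) in wild type. *FUS2*, which acts at the contact zone of fusing cells (chromosome XIII, bins 736900 to 738900), differed between strains in the same way. In *sub1*Δ, *FUS2* averaged 995 with α-factor and 54.8 without it, and 33.2 in sorbitol and 45.4 in fresh SC, while wild type held 1592 with α-factor and 33.2 without it, and 16.7 in sorbitol and 27.0 in fresh SC. Its log2 ratio was 4.18 (4.09 to 4.27) in *sub1*Δ and 5.58 (5.48 to 5.68) in wild type.

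*PRM1*, a membrane protein needed for plasma membrane fusion (chromosome XIV, bins 110900 to 113100), averaged 1644 with and 100.4 without α-factor in *sub1*Δ, against 2337 with and 56.6 without it in wild type. Its log2 ratio was 4.03 (3.97 to 4.10) in *sub1*Δ and 5.37 (5.29 to 5.44) in wild type. The other pheromone-regulated membrane protein genes lay lower. *PRM2* had a log2 ratio of 3.88 (3.80 to 3.96) in *sub1*Δ and 4.56 (4.46 to 4.65) in wild type, and *PRM8* 2.87 (2.83 to 2.92) and 3.59 (3.55 to 3.64). The run on *PRM8* (chromosome VII, bins 401800 to 403400) began before the gene, within 500 bp of a tRNA gene. Over the bins of *PRM8* itself the log2 ratio was 2.89 in *sub1*Δ and 3.34 in wild type. In *PRM4* the strains met, at 3.28 (3.22 to 3.35) in *sub1*Δ and 3.28 (3.22 to 3.33) in wild type, and likewise in *PRM10*, at 2.30 (2.21 to 2.38) and 2.28 (2.20 to 2.37). *PRM5* had the highest level without α-factor of these (2079 with and 522 without α-factor in *sub1*Δ, against 2076 with and 350.3 without it in wild type). *RVS161*, the partner of Fus2, held no run and had a log2 ratio of 1.43 in *sub1*Δ and 1.43 in wild type, and *PRM7* was lower with α-factor in both, at −1.09 and −1.01.

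In the nuclear fusion genes the ratios of both strains lay close together at *PRM3*, *CIK1* and *KAR4* but not at *KAR5* and *KAR3*. The median over all 8 genes of the list was 2.22 in *sub1*Δ and 1.96 in wild type, where 1 gene stayed below a mean of 100. *PRM3*, a protein of the nuclear envelope needed for karyogamy (chromosome XVI, bins 182600 to 183100), had the largest ratio of the list. In *sub1*Δ, *PRM3* averaged 2158 with α-factor and 93.6 without it, and 84.2 in sorbitol and 92.0 in fresh SC, while wild type held 1548 with α-factor and 67.7 without it, and 80.5 in sorbitol and 80.1 in fresh SC. Its log2 ratio was 4.53 (4.40 to 4.65) in *sub1*Δ and 4.51 (4.38 to 4.65) in wild type, and the intervals overlap. *CIK1*, which pairs with the kinesin Kar3 (chromosome XIII, bins 659800 to 662200), averaged 914 with and 92.4 without α-factor in *sub1*Δ, against 768 with and 82.6 without it in wild type, with ratios of 3.31 (3.24 to 3.37) and 3.22 (3.16 to 3.28) in *sub1*Δ and wild type. *KAR4*, the partner of Ste12 at karyogamy genes (chromosome III, bins 28000 to 29100), had 3.13 (3.07 to 3.18) in *sub1*Δ and 3.19 (3.13 to 3.26) in wild type. *KAR5*, which acts in nuclear membrane fusion (chromosome XIII, bins 399800 to 401300), had 2.06 (1.99 to 2.13) in *sub1*Δ and 2.39 (2.32 to 2.45) in wild type. *KAR3* itself held no run, although its ratio over the whole gene was 2.41 in *sub1*Δ and 1.58 in wild type. *KAR1*, of the spindle pole body, and *BIK1*, which binds microtubules, were lower with α-factor, at −0.50 and −0.61 in *sub1*Δ and −0.62 and −0.54 in wild type.

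Induced genes outside the lists included *PCL2*, a cyclin of the kinase Pho85, and *PGU1*, which degrades pectin, both chosen here after their values were seen. The run on *PCL2* (chromosome IV, bins 234900 to 236000) averaged 1639.5 with and 129 without α-factor in *sub1*Δ, against 1757 with and 122 without it in wild type, and that on *PGU1* (chromosome X, bins 721800 to 724000) 1042 with and 181 without α-factor in *sub1*Δ, against 1018 with and 133 without it in wild type. The longest runs of all lay on *YGR109W-B* and *YGR109W-A* (chromosome VII, bins 707200 to 713100) and on *YIL082W-A* (chromosome IX, bins 204800 to 210600), with 60 and 57 bins, and were also picked after the values were seen. They averaged 1369 with and 126 without α-factor in *sub1*Δ, against 1646 with and 109.8 without it in wild type, and 1401 with and 151 without α-factor in *sub1*Δ, against 1647 with and 126 without it in wild type. The paper lists these genes under transposition. The runs on them resemble each other in length and level, and reads of repeated sequence could have been shared between such places, which was not tested.

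At the left end of chromosome III, a run of 28 bins over the pseudogenes *YCL074W* and *YCL075W* (chromosome III, bins 1500 to 4200) had the largest ratio of all. It held 9783 reads with and 92 without α-factor in *sub1*Δ, against 7508 and 15 in wild type. In sorbitol and fresh SC it held 63 and 74 reads in *sub1*Δ, against 5 and 6 in wild type. The region was almost free of reads in the 3 wild-type libraries without α-factor and held more in each *sub1*Δ counterpart. The log2 ratio with α-factor was 6.68 (6.39 to 6.99) in *sub1*Δ and 9.29 (8.57 to 10.13) in wild type. Within 20 kb of a chromosome end lay 5.71% of the induced bins and 2.48% of all bins that reached 100.

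Outside protein-coding genes, 109 runs were found, and 55 of them lay within 500 bp of 1 of the 272 placed tRNA genes. Of the induced bins, 17.8% lay within that distance, and of all bins that reached 100, 1.56%. The libraries were poly(A)-selected, and the tRNAs themselves were not measured. Whether reads of repeated sequence were shared among the runs near tRNA genes was not tested either. The highest of these runs included the tRNA gene *YNCG0011W* (chromosome VII, bins 319000 to 319800), with 5073 with and 262 without α-factor in *sub1*Δ, against 6981 with and 118 without it in wild type. The next lay between the tRNA gene *YNCD0015C* and *TMN2* (chromosome IV, bins 668300 to 668900), between *YNCO0029C* and *SNF2* (chromosome XV, bins 854300 to 855000), and between *YNCP0017C* and *CLB2* (chromosome XVI, bins 769600 to 770100).

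The run beside *TMN2* averaged 5376 with and 197 without α-factor in *sub1*Δ, against 6484 with and 71.7 without it in wild type. It rose to the level of the agglutination genes in both strains, and the *sub1*Δ value without α-factor was above that of wild type. The run beside *SNF2* averaged 5466 with and 216 without α-factor in *sub1*Δ, against 6127 with and 61.9 without it in wild type, and that beside *CLB2* 4049.9 with and 254 without α-factor in *sub1*Δ, against 4868 with and 82.0 without it in wild type. For the 26 runs of at least 3 bins outside coding genes and near a tRNA gene, the median log2 ratio was 3.69 in *sub1*Δ and 4.26 in wild type. For the 18 farther from one it was 2.34 and 2.70, and for the 40 coding runs 2.62 and 3.14. A run between the tRNA genes *YNCI0008C* and *YNCI0009W* on *YIL014C-A* (chromosome IX, bins 324600 to 325400) had 3080.1 with and 196 without α-factor in *sub1*Δ, against 3862 with and 114 without it in wild type, and that on *YNL042W-B* and the tRNA gene *YNCN0009W* (chromosome XIV, bins 546700 to 548000) 1558 with and 132 without α-factor in *sub1*Δ, against 1771 with and 102 without it in wild type. Both runs overlap a short gene and count as coding runs, but most of their signal lay outside that gene. With α-factor the bins of *YIL014C-A* itself averaged 462 in *sub1*Δ and 452 in wild type, and those of *YNL042W-B* 144 and 212.

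The *sub1*Δ libraries with and without α-factor took no part in choosing the bins. All 1015 bins were higher with α-factor than without it in *sub1*Δ (39.2% of all 67329 bins that reached 100 were), and of the 1007 that reached 100 there, 991 were higher by a log2 of at least 1 (98.4%, background 3.38%) and 775 by at least 2 (77.0%, background 1.39%). The median was 3.10 in *sub1*Δ and 3.36 in wild type, and −0.09 over all bins in *sub1*Δ. By runs, 103 of 179 reached 2, and 69 of the 84 runs of at least 3 bins. The ratio in *sub1*Δ was below that in wild type in 159 of 179 runs and in 76 of 84, by a median of 0.69 and 0.61. Since the wild-type ratio had chosen the runs, a smaller ratio in any other pair of libraries can be in part built in, and the size of that part was not tested. The smallest ratio in *sub1*Δ among the longer runs was at bins 31800 to 32000 of chromosome XIII between *YML119W* and *NGL3*, with 99.1 with and 63.6 without α-factor in *sub1*Δ, against 181 with and 40.5 without it in wild type, a log2 ratio of 0.64 (0.37 to 0.92) in *sub1*Δ and 2.16 (1.89 to 2.44) in wild type. *MNC1* (chromosome II, bins 351300 to 351700) followed with 1.16 (1.10 to 1.23) and 2.16 (2.07 to 2.26), and between *THI22* and *AXL1* (chromosome XVI, bins 781200 to 781500) the ratios were 1.38 (1.29 to 1.48) and 2.35 (2.23 to 2.47).

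**Figure D2:**
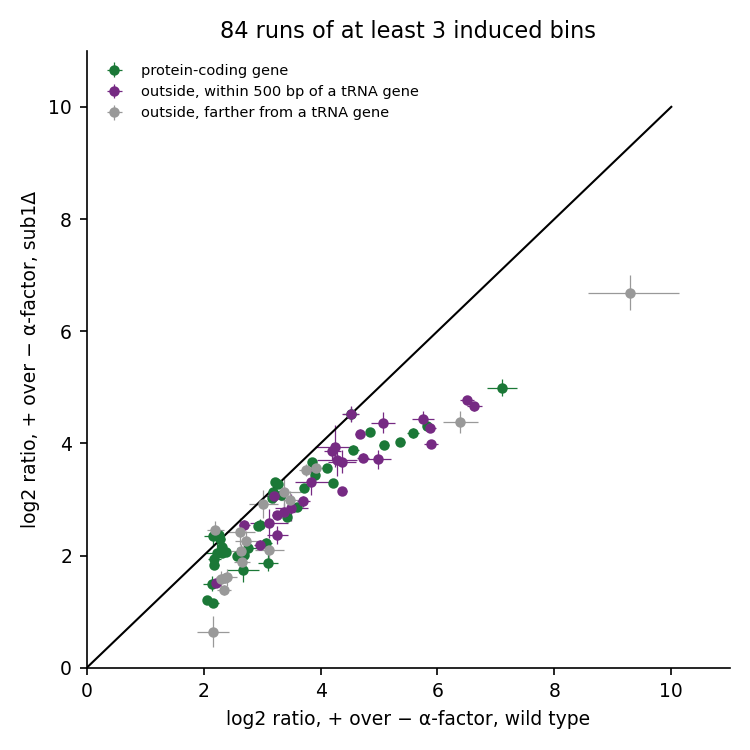
Log2 ratio of the mean RNA signal with over without α-factor in *sub1*Δ (vertical) and wild type (horizontal) for the 84 runs of at least 3 bins; bars are exact 95% binomial intervals on the reads, and the line marks equal ratios. In 76 runs the point lies below the line, and the gap is widest at the right, where the wild-type ratio that chose the bins is largest.

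Between strains, the induced bins were close with α-factor and higher in *sub1*Δ without it. With α-factor the median log2 ratio of *sub1*Δ over wild type was −0.09 over the 1015 bins, and 0.10 over all bins that reached 100, with 435 induced bins above 0 (42.9%, background 64.1%). Without α-factor it was 0.54 and 0.01, and of the 523 induced bins that reached 100 in either strain 458 were above 0 (87.6%, background 51.5%). Both pairs share a wild-type library with the choice of the bins. The fresh SC and sorbitol libraries do not. In fresh SC the median was 0.38 over the induced bins and 0.10 over all bins, and 391 of 461 induced bins that reached 100 were above 0 (84.8%, background 61.7%). In sorbitol it was 0.48 and 0.19, and 367 of 433 were above 0 (84.8%, background 71.9%). The 2 wild-type libraries without pheromone or sorbitol had a median log2 ratio of 0.00 to each other over the induced bins (fresh SC over continued growth, −0.09 over all bins). The quartiles over the induced bins were −0.24 and 0.23. Of the 84 longer runs, 1 was higher in fresh SC by a log2 of at least 1 and 1 lower by as much. At *RRN11* and *AFR1* this pair differed by 1.12 and −0.73, more than the strains did in fresh SC, and at *PRM6* by 0.59, less.

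Of the 84 longer runs, 70 were higher in *sub1*Δ than in wild type in fresh SC, with an interval above 0 in 55 and below 0 in 5. Apart from the chromosome III run, the largest ratios in fresh SC were 1.55 (1.22 to 1.88) between *YER187W* and *YER188W* (chromosome V, bins 567200 to 567900), 1.38 (1.13 to 1.65) at *PRM6*, 1.06 (0.71 to 1.42) at *YKL102C* (chromosome XI, bins 247400 to 248200), and 1.01 (0.87 to 1.15) at *RRN11*, a subunit of an RNA polymerase I factor (chromosome XIII, bins 190200 to 191100). The lowest were −0.43 (−0.56 to −0.30) at *AFR1*, −0.31 (−0.38 to −0.23) at *PRM4*, and −0.24 (−0.38 to −0.09) at *HYM1*, which acts in the control of cell separation (chromosome XI, bins 85200 to 86100). Between *MID2* and *YNCL0040W* (chromosome XII, bins 792900 to 793700) and between *YMR106W-A* and *SPG4* (chromosome XIII, bins 481300 to 481900) the ratios were −0.15 (−0.63 to 0.32) and −0.15 (−0.33 to 0.04), and both intervals include 0.

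**Figure D3:**
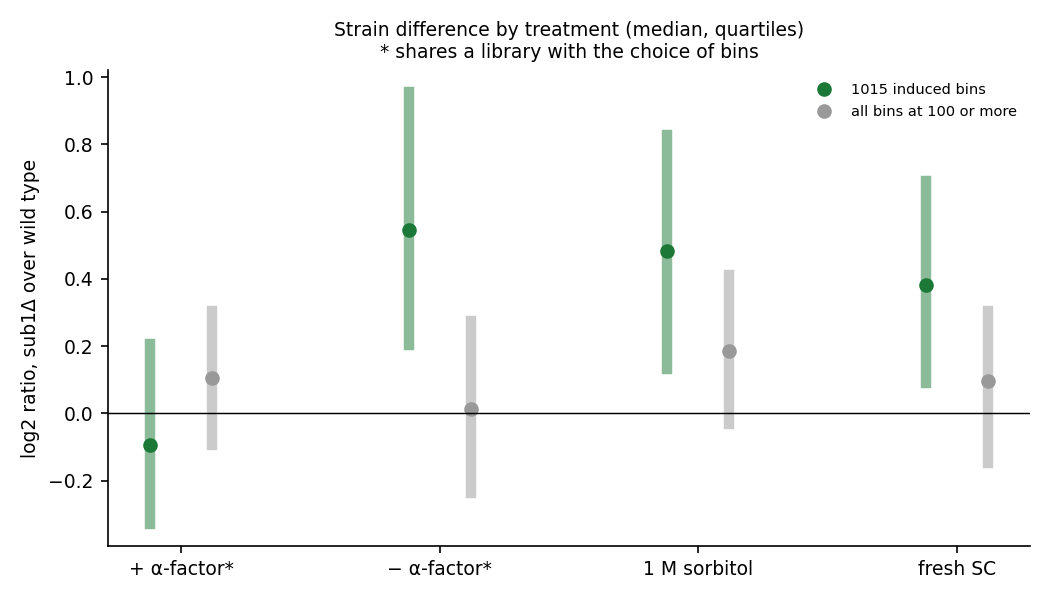
Log2 ratio of *sub1*Δ over wild type per bin in each treatment (points, medians; bars, quartiles), for the 1015 induced bins (left of each pair) and for all bins that reached 100 in either strain (right). The medians of the induced bins were 0.54, 0.48 and 0.38 in the conditions without α-factor and −0.09 with it.

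At a log2 of 1, sorbitol lowered more of the induced bins than it raised. The counts cover the induced bins that reached 100 in sorbitol or in fresh SC, 502 in *sub1*Δ and 387 in wild type, so the bins of *PRM6* are not among them. In *sub1*Δ 72 bins fell by 1 or more in sorbitol against fresh SC (14.3%, background 2.51%) and 21 rose by as much (4.18%, background 5.40%). In wild type 48 fell (12.4%, background 2.20%) and 24 rose (6.20%, background 1.65%). At a log2 of 2, 2 bins fell (0.398%, background 0.205%) and 5 rose (0.996%, background 1.15%) in *sub1*Δ, and 7 fell (1.81%, background 0.114%) and 7 rose (1.81%, background 0.410%) in wild type. The median over the 1015 bins was −0.20 in *sub1*Δ and −0.27 in wild type, beside 0.10 and −0.04 over all bins. Runs moved the same way in both strains in 133 of 179 cases, and in 69 of the 84 longer runs. The share of all bins that did so was not computed, so these counts are not a trait of the induced runs.

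Among the 84 longer runs, the 4 lowest ratios in sorbitol in each strain were at *PRM6* and at genes of agglutination and of **a**-factor. *PRM6* averaged 5.75 in sorbitol and 36.5 in fresh SC in *sub1*Δ, against 2.32 in sorbitol and 14.0 in fresh SC in wild type, with a log2 ratio of −2.67 (−3.08 to −2.27) and −2.60 (−3.22 to −2.02). *AGA2* averaged 452 in sorbitol and 1226 in fresh SC in *sub1*Δ, against 325 in sorbitol and 1281 in fresh SC in wild type, a log2 ratio of −1.44 (−1.52 to −1.36) and −1.98 (−2.07 to −1.89). At *AGA1* the ratio was −1.68 (−1.72 to −1.64) in *sub1*Δ and −1.85 (−1.90 to −1.80) in wild type, and at *MFA1* −1.37 (−1.41 to −1.33) and −1.41 (−1.46 to −1.37). Each of these was thus low in both strains, and the fifth lowest in wild type, between the tRNA gene *YNCP0024C* and *YPR170W-B* (chromosome XVI, bins 880600 to 880900), had −0.77 (−1.05 to −0.51) in *sub1*Δ and −1.23 (−1.62 to −0.86) in wild type.

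A few runs were raised by sorbitol as well as by α-factor. *MNC1* averaged 1087 in sorbitol and 234 in fresh SC in *sub1*Δ, against 1865 in sorbitol and 220.3 in fresh SC in wild type, a log2 ratio of 2.21 (2.11 to 2.32) in *sub1*Δ and 3.08 (2.98 to 3.18) in wild type. *PRM10* averaged 302 in sorbitol and 148 in fresh SC in *sub1*Δ, against 323 in sorbitol and 119 in fresh SC in wild type, with 1.03 (0.94 to 1.13) and 1.44 (1.35 to 1.54), and the run between *YML119W* and *NGL3* had 1.06 (0.69 to 1.42) and 1.46 (1.14 to 1.79). Smaller increases were measured in wild type between *PHM6* and *MRX10* (chromosome IV, bins 1022900 to 1023500), at 0.42 (0.05 to 0.79) in *sub1*Δ and 0.72 (0.35 to 1.09) in wild type, and between *YNCP0018C* and *THI22* (chromosome XVI, bins 776100 to 776400), at 1.13 (0.85 to 1.41) and 0.56 (0.27 to 0.86). The 2 bins at *CHS1* averaged 406 in sorbitol and 357 in fresh SC in *sub1*Δ, against 779.8 in sorbitol and 284 in fresh SC in wild type, a log2 ratio of 0.19 (0.03 to 0.34) and 1.46 (1.32 to 1.60), so the wild-type increase was larger than that of *sub1*Δ. No gene of the osmotic stress list held an induced bin. That list (9 of 10 genes placed) had a median log2 ratio in sorbitol of 2.94 in *sub1*Δ and 1.84 in wild type, and with α-factor of −0.32 in *sub1*Δ and −0.59 in wild type over the same 9 genes, of which 6 and 8 reached a mean of 100.

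Sub1-3HA was higher with α-factor at many of the induced stretches. ChIP values were divided by the median bin of their library, and each run was searched from 500 bp before to 500 bp after it. Of 2539 bins in these windows that reached the median in either library, 402 had at least 2 times the value with α-factor (15.8%, background 0.816% of 68241 bins) and 6 had at most 0.5 times (0.236%, background 0.201%). Such a bin stood beside 73 of 179 runs and 62 of the 84 longer ones. The bin with the highest mean of both libraries had a median ratio of 1.36 over all runs, and all bins, not chosen for height, had 1.01. The highest bin reached 2 in 50 of the 84 longer runs and in 7 of the 95 runs of 1 or 2 bins. Longer runs have wider windows, which hold more bins, and the share over like windows elsewhere was not computed. In windows reaching 500 bp to both sides of all 5866 placed genes, the bin highest with α-factor reached 2 in 1.91%.

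*FUS2* had the largest increase. Its highest bin stood at 44.0 with and 1.78 without α-factor, and 0.861 in the untagged library, a ratio of 24.7 (21.9 to 27.9). *PRM1* stood at 25.4 with and 1.39 without α-factor, and 0.928 in the untagged library, a ratio of 18.3 (16.0 to 21.0). Both bins were within 2 times the library median without α-factor. *FIG2* stood at 29.0 with and 1.83 without α-factor, and 1.07 in the untagged library, a ratio of 15.8 (14.1 to 17.9), and there 47 of 60 bins in the window reached 2 times, in *AGA1* 25 of 33. The increase thus covered most of these long runs, whereas at *CIK1* 5 of 35 bins and at *FUS2* 12 of 31 reached it.

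*PRM3* had a ratio of 14.3 (12.8 to 16.0), *AGA1* of 10.5 (9.44 to 11.6) and *CIK1* of 10.2 (8.73 to 11.9). Outside coding genes the largest was beside *CLB2*, at 43.4 with and 2.72 without α-factor, and 1.08 in the untagged library, a ratio of 16.0 (14.5 to 17.6). The runs on *YNL042W-B*, on *YIL014C-A*, beside *YPR170W-B*, between *YNCN0020C* and *HOL1* (chromosome XIV, bins 726300 to 727400), and on *YNCG0011W* had ratios of 14.5, 12.7, 12.4, 12.1 and 10.9, and all lie within 500 bp of a tRNA gene. Of the 26 longer runs outside coding genes and near a tRNA gene, 17 reached 2, with a median of 7.48. Of the 18 outside coding genes and farther away, 6 did, with a median of 1.56. Of the 40 coding runs, which include those on *YNL042W-B* and *YIL014C-A*, 27 did, with a median of 3.10.

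Some induced runs had little or no such increase. *AFR1* had a ratio of 1.19 (1.03 to 1.38), *PRM10* of 1.17 (0.995 to 1.38), and *YKL102C* of 1.03 (0.913 to 1.15). The run on *AFR1* lies at the 3′ end of the gene, so the start of *AFR1* may be outside the window searched. The paper lists *AFR1* among genes with more Sub1 binding with α-factor. Near the single bin of *FAR1*, Sub1 was already high without pheromone and still rose, with a ratio of 2.77 (2.65 to 2.90). The highest bin there stood at 42.1 with and 15.2 without α-factor, and 1.02 in the untagged library. Beside *KAR4* the highest bin was lower with α-factor, at 3.00 with and 4.83 without α-factor, and 0.989 in the untagged library, while the bin at the start of *KAR4* itself had 5.83 with and 1.80 without α-factor. Across the 84 longer runs, the Spearman correlation of the Sub1 ratio with the log2 ratio of RNA was 0.52 in *sub1*Δ and 0.57 in wild type, and across the 40 coding runs 0.69 and 0.74. These are descriptions over runs that share their libraries and were chosen by the wild-type ratio. The correlation over all genes was not computed.

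**Figure D4:**
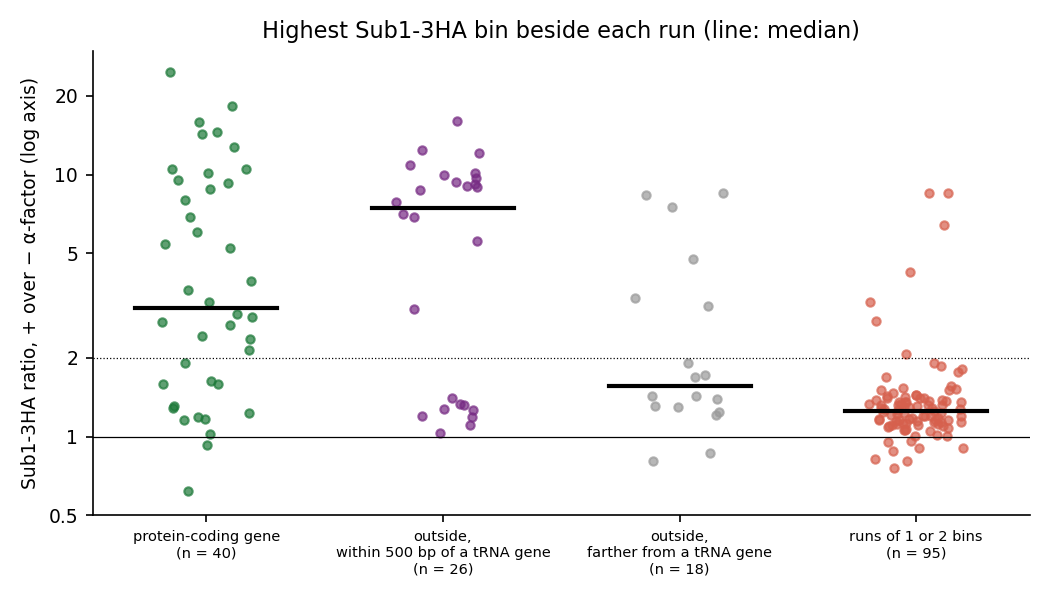
Ratio with over without α-factor of Sub1-3HA at the highest bin within 500 bp of each run (log axis), by class of run; lines are medians, the solid horizontal rule marks 1 and the dotted rule 2. The runs outside coding genes and near tRNA genes split into 17 between 3.08 and 16.0 and 9 below 2.

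Over the 37 genes with at least 50% of their bins induced, the bin highest with α-factor was between 500 bp upstream and the start bin in 27 (73.0%), with a median position of −100 bp. Of all 5866 placed genes 66.2% had it there, with the same median position, so the position was near that of genes at large. Taking the bin that is highest with α-factor by itself favours a high ratio, in the induced genes as in all. Its ratio reached 2 in 27 of the 37 genes (73.0%, against 1.91% of all placed genes) and 5 in 16 (43.2%, against 0.904%). In the mean profile, the bin 100 bp upstream of the start had 8.55 with and 2.23 without α-factor, and 1.01 in the untagged library. Over all 5866 placed genes the same position had 2.54, 2.35 and 0.97. Over the whole 500 bp before the start, 18 of the 37 genes (48.6%) reached 2 times, as did 20 of the 55 genes of the pheromone lists (36.4%), beside 0.716% of 5864 genes. *YGR109W-A* and *YGR109W-B* start at the same bin and have the same Sub1 values, so the 37 genes are not 37 separate starts.

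**Figure D5:**
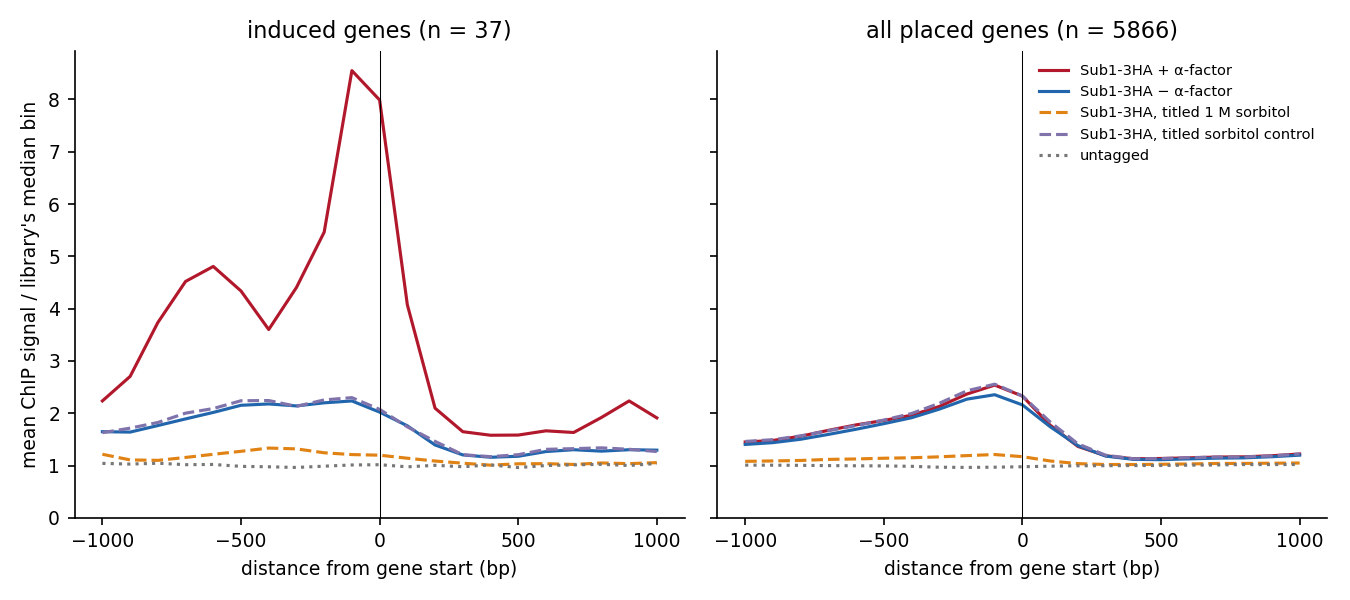
Mean ChIP signal, divided by the library's median bin, against distance from the gene start for the 37 induced genes (left) and all 5866 placed genes (right) in the 5 ChIP libraries. With α-factor the induced genes peak at 8.55 at 100 bp upstream of the start, where all genes have 2.54, and the untagged library stays near 1 throughout.

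In the pair of sorbitol ChIP libraries the titles and the treatment text contradict each other, and the groups follow the titles. At 100 bp upstream of the 37 induced genes the mean was 1.21 in the library titled 1 M sorbitol and 2.30 in the one titled control, beside 2.23 in the Sub1-3HA library without α-factor and 1.01 in the untagged one. Over all placed genes it was 1.21 and 2.56, beside 2.35 and 0.97, so the library titled control lay near the untreated tagged library and the one titled 1 M sorbitol nearer to the untagged one. Of 2342 window bins, 398 had at most 0.5 times the value in the library titled 1 M sorbitol (17.0%, background 12.8%) and 9 had at least 2 times (0.384%, background 1.39%). The highest bin beside a run had a median ratio of 0.60, and all bins, not chosen for height, 0.84. Over the whole 500 bp before the start, the median ratio was 0.59 for the 37 induced genes and 0.62 for all placed genes, so the induced genes were near genes at large. At *AGA2* the ratio of the highest bin was 0.201, with 1.10 in the library titled 1 M sorbitol and 5.47 in the one titled control, and near the single bin of *FAR1* it was 0.0629, with 0.884 and 14.1. At *MNC1*, where sorbitol raised the RNA, it was 1.08, with 4.86 and 4.51.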

How the data were processed

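RNA-Seq (8 libraries) and ChIP-Seq (5 libraries) were used, each condition a single library. The authors aligned the reads to SacCer2 (Bowtie2) and deposited, for each 100-bp bin, a signal that sums to the same total in all libraries of an assay. How the bins were filled is not given in the sources used here, and the strand is not kept. Reads were recovered from the value of 1 read in each library. The barcode counts of the deletion library (38 samples) were not used here. Ratios of bins used log2(value + 1) and a floor of 100 in either library, runs used mean signal without a pseudocount, and ChIP values were divided by the median bin of their library. The members, the gene lists and the comparisons were chosen with earlier results of these data known. Gene names come from the R64 RefSeq table, whose layout was slid along the bins: 5974 genes had a clear best place, and 295 were placed through both neighbours, a step chosen after seeing the data. A gene names a run when at least 50% of the run lies on it or the run covers at least 50% of it. No coordinate of R64 is printed. As a check, the 9 bins emptied in *sub1*Δ (chromosome XIII, 348700 to 349500) lay within the place found for *SUB1* (348600 to 349500). Named runs are the 10 highest with α-factor, the 10 largest ratios in wild type, the 5 largest and 5 smallest in *sub1*Δ, between strains in fresh SC and in sorbitol, the 10 largest Sub1 ratios, and every run on a listed gene. Python 3.11.15, numpy 2.4.6, pandas 2.3.3, scipy 1.17.1 and matplotlib 3.10.9 were used. The choice of bins and the intervals were tested on simulated reads, for bins of at least 100 without α-factor. The joining of runs was tested on a small example. The placement of genes and the ChIP steps were not tested in this way.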

Additional observations from a re-analysis of the deposited data

Results flagged for a closer look

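Runs on *PRM5* and *SCW10* moved in opposite directions in sorbitol in the strains. The log2 ratio of sorbitol over fresh SC at *PRM5* was −0.12 in *sub1*Δ and 0.20 in wild type, and at *SCW10* −0.07 in *sub1*Δ and 0.07 in wild type. The difference was not tested, since each value rests on a single pair of libraries.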

How the results depend on the processing

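No paired analysis was possible because the RNA-Seq and ChIP-Seq libraries carry no replicate numbers. A fit that takes the strains as pairs within the 4 treatments was not run. Without the floor of 100, the number of runs was 378 in place of 179, the median log2 ratio of the bins in *sub1*Δ was 2.61 in place of 3.10, and the bins past 2 in sorbitol were 28 lower and 21 higher in *sub1*Δ and 22 lower and 19 higher in wild type. A floor of 200 gave a median of 3.25. With a pseudocount of 10, 3 bins fell by 2 or more in sorbitol in wild type in place of 7, and with scaling by the total without the 1% highest bins 6 fell in *sub1*Δ in place of 2. That scaling moved the median over all bins of *sub1*Δ against wild type in sorbitol by −0.12. The causes were not tested. Depth limits the lowest values: the run on *YCL074W* rests on 5 to 15 reads in each wild-type library without α-factor. With names from genes of clear place alone, chosen after seeing the data, 61 runs in place of 70 lay on coding genes and 57 in place of 66 near a tRNA gene.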
